A study of Mus musculus with 2 samples.

Results

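The genes described here are the 8 rows for beta-2 microglobulin and for the class I heavy chains of the mouse major histocompatibility complex (MHC) taken by symbol: B2m, H2-K1, H2-D1, H2-Q4, H2-Q6, H2-Q7, H2-T22 and H2-T23. They are 8 of the 32285 genes in the deposited tables, and all 8 were found in both libraries. The series profiled single tongue epithelial cells of male B57BL/6 mice (strain as spelled in the labels) aged 8-12 weeks, at ZT12 and at ZT0, where ZT is Zeitgeber time, by convention counted from lights on. Per the labels' protocols, TrypLE, a trypsin-like enzyme, freed the cells from the epithelium, and cells that took up the death dye 7-AAD were sorted out. Each time had 1 library. How many mice went into a library was not stated in the sources used here, so time, library and animal cannot be told apart, and every difference below is a difference between 2 libraries with no replicate check.

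Classical MHC class I molecules carry short peptides from inside the cell to its surface, where CD8 T cells and natural killer cells read them. A classical heavy chain spans the membrane and folds with a peptide and the light chain, beta-2 microglobulin. The peptides are cut by the proteasome and pumped into the endoplasmic reticulum by the TAP transporter. Nearly all nucleated cells make class I at some level, and interferons raise it through STAT and IRF factors and the coactivator NLRC5, in epithelia as elsewhere.

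The 7 heavy chain genes lie together on chromosome 17 and B2m lies on chromosome 2 (mm10 build, positions from GENCODE M21). H2-K1, at 33996017 to 34000347, and H2-D1, at 35262730 to 35267499, are the classical genes. H2-Q4 (35379617 to 35385290), H2-Q6 (35424850 to 35430055) and H2-Q7 (35439155 to 35443773) are non-classical genes of the Q region. H2-T23 (36029773 to 36032855) and H2-T22 (36037128 to 36042747) are non-classical genes of the T region. B2m occupies 122147686 to 122153083 on chromosome 2. All 8 are annotated as protein-coding.

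All 8 genes matched the RefSeq promoter table (GRCm38.p6). The 250 bases before each RefSeq start held a motif of the interferon response type, which IRF and STAT-containing complexes are known to bind. The motif was searched on both strands as GAANNGAAA and as GAAANNGAA, which can overlap and differ in the spacing of their GAA parts. At least 1 of these was present in 12.5% of the 32851 promoters in the table. The first form was in H2-K1, H2-D1, H2-Q4, H2-Q6 and H2-Q7 (6.31% of all promoters), and the second form was in B2m, H2-T22 and H2-T23 (7.13%). A kappaB-type motif, GGGATTCCC, searched on both strands, was in H2-K1, H2-D1, H2-Q6 and H2-Q7 and in 0.301% of all promoters. Windows of 75 bases around the interferon-type match are shown so that the shared layout can be read. Capitals mark the interferon-type match, and in H2-K1, H2-D1, H2-Q6 and H2-Q7 the first run of capitals is the kappaB-type match.
B2m: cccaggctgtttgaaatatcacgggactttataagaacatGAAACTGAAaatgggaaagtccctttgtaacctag
H2-K1: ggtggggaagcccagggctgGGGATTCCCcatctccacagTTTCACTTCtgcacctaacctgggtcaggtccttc
H2-D1: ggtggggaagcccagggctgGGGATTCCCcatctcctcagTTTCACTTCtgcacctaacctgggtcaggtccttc
H2-Q4: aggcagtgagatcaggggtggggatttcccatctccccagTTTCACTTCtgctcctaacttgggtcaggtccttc
H2-Q6: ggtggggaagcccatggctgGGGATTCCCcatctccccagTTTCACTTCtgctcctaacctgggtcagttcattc
H2-Q7: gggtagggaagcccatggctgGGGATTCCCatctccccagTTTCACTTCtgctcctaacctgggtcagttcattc
H2-T22: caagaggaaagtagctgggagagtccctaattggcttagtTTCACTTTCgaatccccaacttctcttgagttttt
H2-T23: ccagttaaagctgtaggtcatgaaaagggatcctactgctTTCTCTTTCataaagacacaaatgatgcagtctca
These windows are B2m chr2:122147508-122147582 on the plus strand, H2-K1 chr17:34000403-34000477 on the minus strand, and H2-D1 chr17:35262904-35262978, H2-Q4 chr17:35379424-35379498, H2-Q6 chr17:35424658-35424732 and H2-Q7 chr17:35439002-35439076 on the plus strand. H2-T22 is chr17:36042898-36042972 and H2-T23 is chr17:36032790-36032864, both on the minus strand.

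The first base of the interferon-type match lay 90 bases before the RefSeq start in H2-K1 and 190 bases before it in H2-T22, with the other members between these. The RefSeq starts used for H2-D1 (35263094) and H2-T23 (36032701) lie inside the GENCODE genes. By the GENCODE positions, the H2-D1 window and most of the H2-T23 window are therefore within the gene. Over the aligned bases of the 250-base stretch, H2-Q6 and H2-Q7 were 97.6% identical, and H2-K1 and H2-D1 were 87.4% identical. B2m was 57.7% to 62.7% identical to the heavy chain genes. CCAAT, a motif of the conserved class I promoter module, was in all 8 members and in 33.8% of all promoters. The letters TTCNNNGAA, a STAT-type motif, were in none of the 8 windows and in 7.02% of all promoters. The motifs were chosen with the members' values known, and a match describes letters and not a bound site.

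After filtering, 2622 cells with a median of 23088 UMIs (unique molecular identifiers, 1 per captured transcript) remained at ZT12 and 1593 cells with a median of 28365 UMIs at ZT0, and 2 cell barcodes occurred in both libraries. The tissue label was borne out by the keratins. The classes were named from lists that hold the markers given here, so these levels describe the classes and are not a separate check. Basal-like cells (979 at ZT12, 566 at ZT0) had Krt5 at 5464 CPM at ZT12 (UMIs of a gene scaled to the summed UMIs of the class) and 4936 CPM at ZT0. Cycling-like cells (90 at ZT12, 207 at ZT0) had Top2a at 476 CPM at ZT12 and 1189 CPM at ZT0, differentiated-like cells (1279 at ZT12, 614 at ZT0) had Krt13 at 37982 CPM at ZT12 and 33441 CPM at ZT0, and filiform-like cells (193 at ZT12, 120 at ZT0) had Krt84 at 3508 CPM at ZT12 and 2842 CPM at ZT0. Some other markers of the lists went the other way. At ZT12 Krt32, of the filiform list, was at 43.3 CPM in filiform-like and 305 CPM in differentiated-like cells, and Krt82 was at 0 CPM in both. Krt14, of the basal list, was then at 19043 CPM in filiform-like and 9581 CPM in basal-like cells. Sbsn, of the differentiated list, was at 2659 CPM in filiform-like and 912 CPM in differentiated-like cells. Together the 4 classes are called keratinocytes, and the class I genes were not used to cluster them. A simple epithelium-like cluster (36 cells at ZT12, 35 at ZT0), an immune-like cluster (10 cells at ZT12, 22 at ZT0) and an unnamed shallow cluster were left apart. Of the basal-like class, cluster 0 held 337 cells at ZT12 and 51 at ZT0, and cluster 10 held 37 cells at ZT12 and 179 at ZT0. Of the cycling-like class, cluster 9 held 40 cells at ZT12 and 189 at ZT0. Those 3 clusters thus came mostly from 1 library.

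Class I RNA was lower at ZT12 in each keratinocyte class. Summed over the 8 genes it was 368 CPM at ZT12 and 1572 CPM at ZT0 in all keratinocytes, 4.27-fold lower at ZT12 (95% interval 4.20 to 4.33, counting error only, as for all intervals below). The sum was 299 CPM at ZT12 and 1446 CPM at ZT0 in basal-like cells, 4.83-fold lower (4.69 to 4.98). In cycling-like cells it was 294 CPM at ZT12 and 1743 CPM at ZT0, 5.93-fold lower (5.48 to 6.43). In differentiated-like cells it was 410 CPM at ZT12 and 1690 CPM at ZT0, 4.12-fold lower (4.05 to 4.20). In filiform-like cells it was 301 CPM at ZT12 and 692 CPM at ZT0, 2.30-fold lower (2.14 to 2.48). The 4 intervals do not overlap, but they leave out the spread between cells and so do not by themselves rank the classes. The filiform-like fold was the smallest of the 4, as it was for the sum under each other cell filter and clustering tried. The order of the other 3 classes depended on which cells were grouped. With a stricter cell filter (1000 genes or more, mitochondrial share under 5%), the cycling-like class held 267 cells at ZT12 and 262 at ZT0 and its fold was 4.69 (4.48 to 4.91), against 4.83 (4.67 to 4.99) in basal-like cells. Without the clusters that came mostly from 1 library, the basal-like fold was 3.77 (3.63 to 3.92), below the differentiated-like one. At ZT12 the basal-like, cycling-like and filiform-like sums lay within 8 CPM of each other, and at ZT0 the filiform-like sum stood below the other 3.

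A gene is counted as lower when its CPM at ZT12 is at least 1.5-fold below that at ZT0, the interval of the ratio leaves out 1, and the mean of its CPM in both libraries is at least 5. In all keratinocytes 7 of the 8 members were lower by this rule, beside 5.17% of all 9498 genes that reached the minimum. In basal-like cells 7 of 8 were lower, beside 3.81% of genes. In cycling-like cells 8 of 8 were lower, beside 9.26%. In differentiated-like cells 6 of 8 were lower, beside 2.47%, and in filiform-like cells 4 of 8, beside 3.53%. No member was at least 1.5-fold higher at ZT12 by the mirrored rule in any of these, beside 1.25% of genes in all keratinocytes, 2.93% in basal-like, 6.87% in cycling-like, 1.32% in differentiated-like cells and, in filiform-like cells, 2.32%. H2-Q6 and H2-Q7, where they counted, and H2-Q4 in cycling-like cells reached the minimum through the ZT0 library alone, so those 3 genes could only be counted as lower. The members not counted were H2-Q4 (below the minimum in all keratinocytes and in basal-like, differentiated-like and filiform-like cells), H2-Q6 (below it in differentiated-like and filiform-like cells), H2-Q7 (below it in filiform-like cells) and H2-T22 in filiform-like cells. The median log2 ratio of the 8 members, ZT12 over ZT0, was -2.83 in all keratinocytes and between -3.12 and -2.67 in basal-like, cycling-like and differentiated-like cells. In filiform-like cells it was -2.28, or -1.26 with the genes without a UMI at ZT12 set to a floor of 3 counts. The median of all genes that reached the minimum was between -0.03 and 0.02 in all keratinocytes and in each class.

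**Figure D1:**
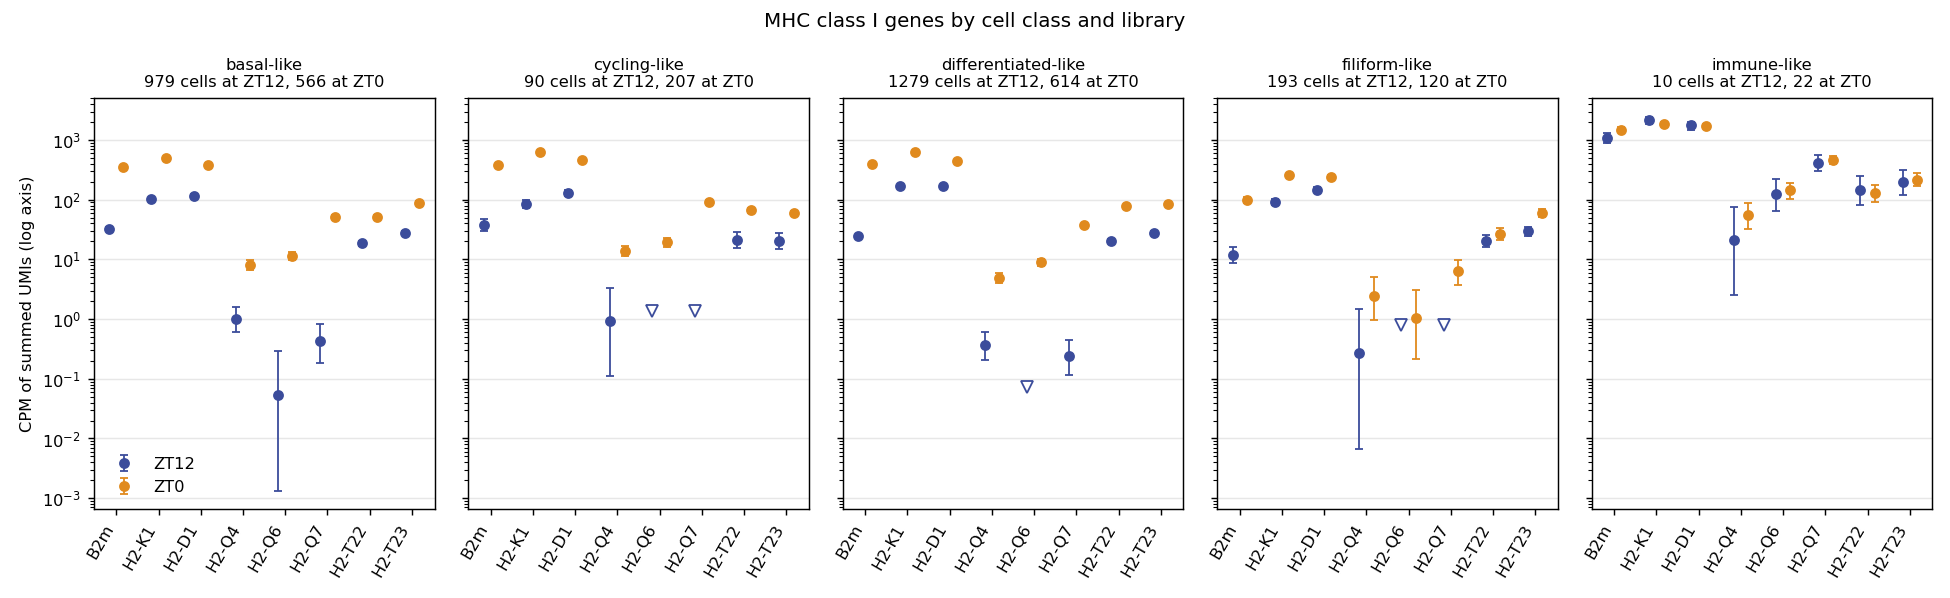
CPM of the 8 class I genes (log axis) in the 4 keratinocyte classes and in immune-like cells, ZT12 (blue) left of ZT0 (orange). Points are sums over the cells of 1 library with exact Poisson 95% intervals, and open triangles mark the 3-count floor of a gene with 0 UMIs at ZT12. Over the 4 keratinocyte classes B2m ran from 12.0 to 38.2 CPM at ZT12 and from 100.2 to 402 CPM at ZT0, whereas the immune-like points of both libraries lie close together.

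B2m, the light chain shared by every classical and non-classical heavy chain here, was at 26.3 CPM at ZT12 (25.1 to 27.6) and at 367 CPM at ZT0 (362 to 373) in all keratinocytes, 13.97-fold lower at ZT12 (13.3 to 14.7). It was at 32.0 CPM at ZT12 and 352 CPM at ZT0 in basal-like cells, 10.98-fold lower (10.1 to 12.0), and at 38.2 CPM at ZT12 and 384 CPM at ZT0 in cycling-like cells, 10.0-fold lower (8.07 to 12.6). In differentiated-like cells B2m was at 24.3 CPM at ZT12 and 402 CPM at ZT0, 16.5-fold lower (15.5 to 17.6), and in filiform-like cells at 12.0 CPM at ZT12 and 100.2 CPM at ZT0, 8.38-fold lower (6.10 to 11.7). The class order differed between the libraries. At ZT12 cycling-like and basal-like cells were highest, with intervals that overlap (30.5 to 47.4 and 29.5 to 34.7 CPM), then differentiated-like and then filiform-like cells. At ZT0 differentiated-like and cycling-like cells were highest, again overlapping (394 to 410 and 370 to 398 CPM), then basal-like and then filiform-like cells. Of these orders, filiform-like cells were lowest in both libraries under each cell filter and clustering tried, whereas with the stricter cell filter the ZT0 level was 343 CPM in basal-like, 330.3 CPM in differentiated-like and 323 CPM in cycling-like cells.

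B2m also differed more than the heavy chains as a group. Per 100 heavy chain UMIs there were 7.68 B2m UMIs at ZT12 and 30.5 at ZT0 in all keratinocytes. The same quantity was 12.0 at ZT12 and 32.2 at ZT0 in basal-like cells, 14.96 at ZT12 and 28.2 at ZT0 in cycling-like cells, 6.31 at ZT12 and 31.2 at ZT0 in differentiated-like cells, and 4.14 at ZT12 and 16.9 at ZT0 in filiform-like cells. UMIs count 3' ends and were not divided by transcript length, so these are ratios of captured transcripts and not of protein.

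H2-K1, a classical heavy chain that presents peptides to CD8 T cells, was at 143 CPM at ZT12 and 569 CPM at ZT0 in all keratinocytes, 3.99-fold lower at ZT12 (3.89 to 4.08). By class it was 102 CPM at ZT12 and 505 CPM at ZT0 in basal-like cells, 85.2 CPM at ZT12 and 639 CPM at ZT0 in cycling-like cells, 169 CPM at ZT12 and 619 CPM at ZT0 in differentiated-like cells, and 91.2 CPM at ZT12 and 255 CPM at ZT0 in filiform-like cells. The fold was greatest in cycling-like cells, 7.50 (6.47 to 8.73), and smallest in filiform-like cells, 2.80 (2.46 to 3.19). The cycling-like fold depended on the cells grouped, being 4.42 (4.11 to 4.76) with the stricter cell filter, below 4.91 (4.64 to 5.20) in basal-like cells, and 5.88 (5.29 to 6.55) once the top 5% of doublet scores were removed, against 5.97 (5.61 to 6.37) in basal-like cells. At ZT12 differentiated-like cells stood above the other 3 classes, whose neighbouring intervals overlap.

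H2-D1, the other classical heavy chain, was at 151 CPM at ZT12 and 422 CPM at ZT0 in all keratinocytes, 2.80-fold lower at ZT12 (2.73 to 2.87). It was at 118 CPM at ZT12 and 377 CPM at ZT0 in basal-like cells, 128 CPM at ZT12 and 469 CPM at ZT0 in cycling-like cells, 167 CPM at ZT12 and 454 CPM at ZT0 in differentiated-like cells, and 148 CPM at ZT12 and 240 CPM at ZT0 in filiform-like cells. The filiform-like fold of 1.62 (1.45 to 1.82) was again the smallest. H2-D1 was the member with most UMIs at ZT12 (40.9% of the summed member UMIs, against 38.7% for H2-K1), whereas at ZT0 H2-K1 led with 36.2%, against 26.9% for H2-D1. At ZT12 the intervals of H2-K1 and H2-D1 overlap in differentiated-like cells (165 to 173 CPM and 164 to 171 CPM), and H2-D1 was above H2-K1 in the other 3 classes.

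H2-Q7 and H2-Q6, genes of the Q region that encode Qa-2 antigens, were close to absent at ZT12. H2-Q7 had 18 UMIs at ZT12, of 2541 cells, and 2316 UMIs at ZT0, of 1507 cells, or 0.272 CPM at ZT12 and 48.2 CPM at ZT0, 177-fold lower at ZT12 (112 to 300.0). It was at 0.424 CPM at ZT12 and 52.3 CPM at ZT0 in basal-like cells and at 0.241 CPM at ZT12 and 37.4 CPM at ZT0 in differentiated-like cells. In cycling-like cells it had 0 UMIs at ZT12 and 694 at ZT0 (91.5 CPM), at least 66.2-fold lower against a floor of 3 counts in the ZT12 sum, and in filiform-like cells 0 UMIs at ZT12 and 18 at ZT0, at least 7.88-fold lower. H2-Q7 was therefore highest at ZT0 in cycling-like cells and lowest there in filiform-like cells.

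H2-Q6 had 1 UMI at ZT12 and 519 UMIs at ZT0 in all keratinocytes, a ratio of 716 with an interval of 128 to 28329. Its ZT0 level was 11.5 CPM in basal-like, 19.4 CPM in cycling-like and 8.89 CPM in differentiated-like cells, the only ZT12 UMI being in a basal-like cell. In filiform-like cells it had 0 UMIs at ZT12 and 3 at ZT0, too few for a fold. Of the 90-base windows in the last 500 bases of its transcripts, 26.9% also occur in other genes, mostly H2-Q7. Reads from such windows cannot be placed in 1 gene by their sequence. For H2-Q7 the share of such windows was 4.73%, with H2-Q5. With the immune-like cells kept in, the log2 ratio was -5.89 for H2-Q6 and -5.86 for H2-Q7, against -9.48 and -7.47 without them.

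H2-Q4, a further Q-region gene, had 37 UMIs at ZT12 and 342 at ZT0 in all keratinocytes, 0.559 CPM at ZT12 and 7.12 CPM at ZT0, 12.7-fold lower at ZT12 (9.07 to 18.4). It was at 1.01 CPM at ZT12 and 8.20 CPM at ZT0 in basal-like cells, 0.921 CPM at ZT12 and 13.98 CPM at ZT0 in cycling-like cells, and 0.362 CPM at ZT12 and 4.94 CPM at ZT0 in differentiated-like cells. In filiform-like cells there were 1 UMI at ZT12 and 7 at ZT0, a ratio of 9.19 with an interval of 1.18 to 414. The class order of H2-Q4 at ZT0 was that of H2-Q6, with cycling-like cells highest. Of its 3' windows, 9.49% are shared with other genes.

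H2-T23, which encodes Qa-1, a ligand of the natural killer cell receptor CD94/NKG2, was at 27.7 CPM at ZT12 and 79.9 CPM at ZT0 in all keratinocytes, 2.89-fold lower at ZT12 (2.73 to 3.05). It was at 27.9 CPM at ZT12 and 88.3 CPM at ZT0 in basal-like cells, 20.3 CPM at ZT12 and 60.1 CPM at ZT0 in cycling-like cells, 27.8 CPM at ZT12 and 83.8 CPM at ZT0 in differentiated-like cells, and 29.5 CPM at ZT12 and 60.4 CPM at ZT0 in filiform-like cells. At ZT12 the intervals of all 4 classes overlap, whereas at ZT0 basal-like and differentiated-like cells stood above the other 2 classes.

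H2-T22, whose product is recognised by a subset of gamma delta T cells, was at 20.1 CPM at ZT12 and 66.8 CPM at ZT0 in all keratinocytes, 3.32-fold lower at ZT12 (3.12 to 3.54). In basal-like cells it was at 18.7 CPM at ZT12 and 52.3 CPM at ZT0, in cycling-like cells at 21.2 CPM at ZT12 and 66.7 CPM at ZT0, and in differentiated-like cells at 20.7 CPM at ZT12 and 79.5 CPM at ZT0. In filiform-like cells H2-T22 had 76 UMIs in each library, 20.2 CPM at ZT12 and 26.5 CPM at ZT0, and the interval of that ratio includes no difference (1.31-fold, 0.943 to 1.83). Its ZT12 level was nearly flat over the 4 classes and its ZT0 level was not. Of its 3' windows, 26.4% are shared with H2-T10.

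**Figure D2:**
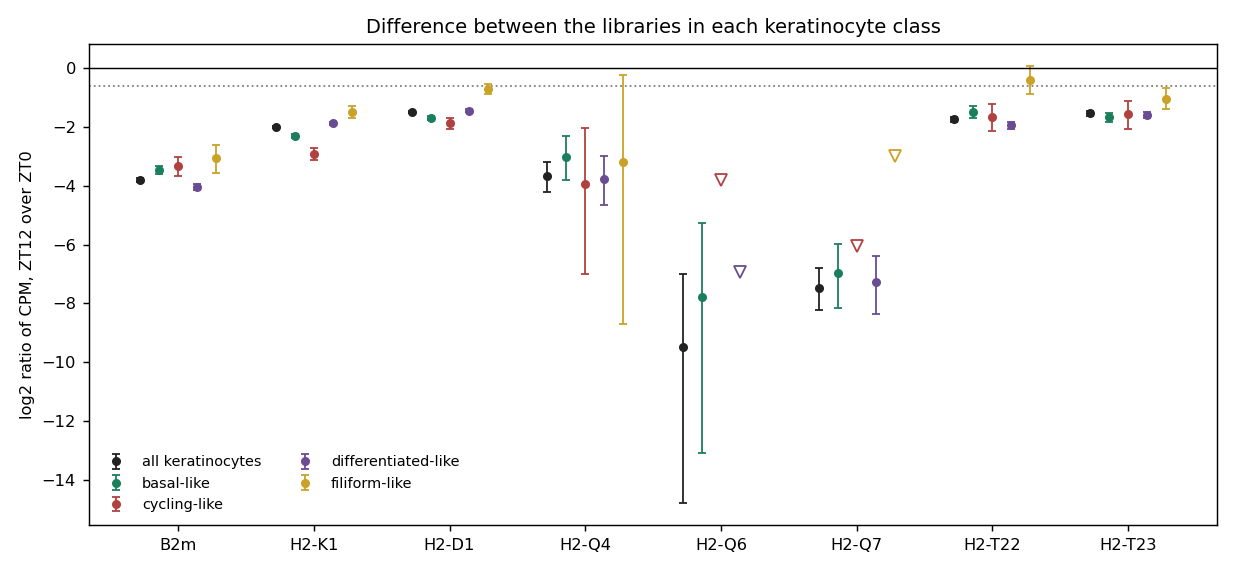
Log2 ratio of CPM, ZT12 over ZT0, of each member in all keratinocytes and in each class, with exact 95% intervals for counting error. Open triangles are bounds from the 3-count floor where ZT12 had 0 UMIs, and the dotted line marks a 1.5-fold difference. In all keratinocytes H2-Q6 and H2-Q7 lie lowest, with B2m and H2-Q4 next, and the filiform-like points of H2-K1, H2-D1, H2-T22 and H2-T23 lie nearest to 0.

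Ranked over the 9498 genes that reached the minimum in all keratinocytes, from the lowest log2 ratio, B2m was 36th, H2-K1 128th, H2-T22 150th, H2-T23 167th and H2-D1 170th. H2-Q6 and H2-Q7 are given no place, since they reached the minimum through ZT0 alone and their ratios rest on 1 and 18 UMIs at ZT12. With a pseudocount of 1 CPM the log2 ratio was -3.54 for H2-Q6 and -3.75 for B2m. Most of the summed difference in CPM came from the abundant members, 35.4% from H2-K1, 28.3% from B2m and 22.6% from H2-D1. H2-T23 gave 4.34%, H2-Q7 3.99% and H2-T22 3.88%, and H2-Q4 and H2-Q6, in spite of their large folds, gave under 1% each.

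The difference was present in each of the 17 keratinocyte clusters. The summed member level was lower at ZT12 in all 17, from 1.99-fold (1.73 to 2.29) in cluster 15, filiform-like, to 8.36-fold (7.89 to 8.85) in cluster 0, basal-like. At ZT12 the clusters spanned 213 to 634 CPM and at ZT0 466 to 3632 CPM. Cluster 7, differentiated-like, was highest in both libraries, at 634 CPM at ZT12 and 3632 CPM at ZT0. B2m was between 5.31-fold and 54.7-fold lower at ZT12 over the clusters, with the interval leaving out 1 in all 17, as it did for H2-K1 and H2-D1. H2-T22 was lower at ZT12 in all 17, with the interval leaving out 1 in 13. H2-Q6 had 0 UMIs at ZT12 in 16 of the 17 clusters.

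**Figure D3:**
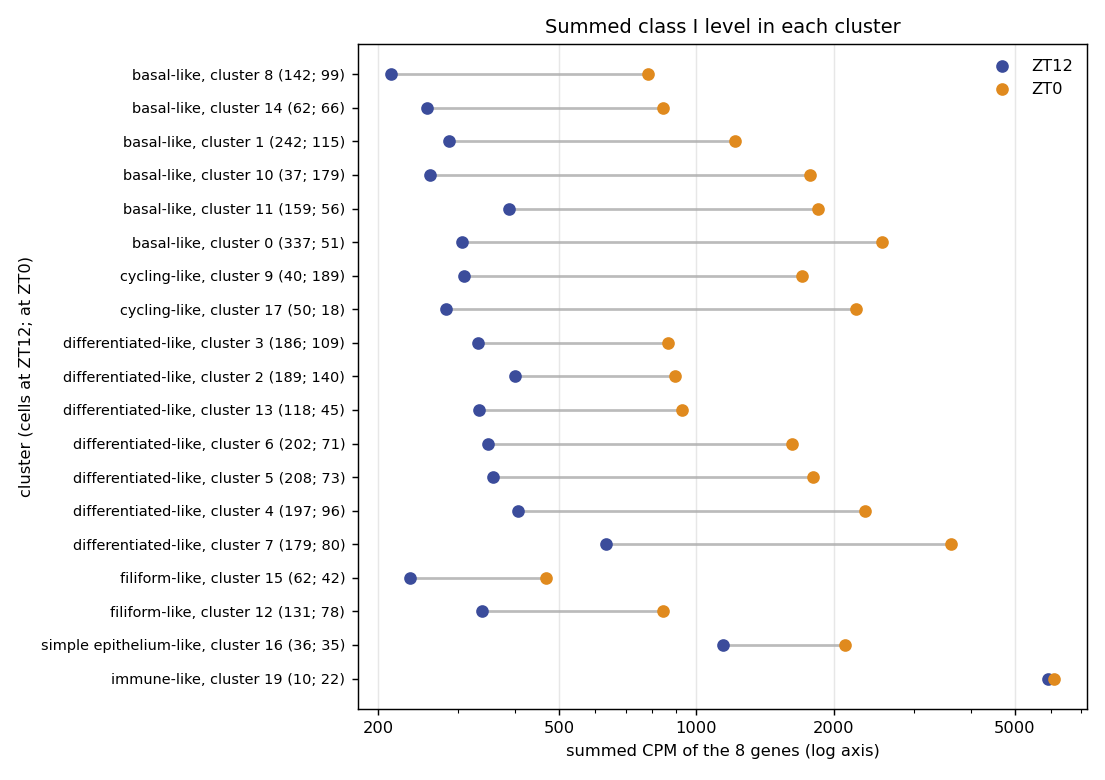
Summed CPM of the 8 class I genes in each named cluster (log axis), ZT12 in blue and ZT0 in orange, with the cells per library in brackets. All 17 keratinocyte clusters are lower at ZT12, the highest at 634 CPM at ZT12 and 3632 CPM at ZT0. The immune-like points, 5926 CPM at ZT12 and 6109 CPM at ZT0, almost coincide.

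Without the 3 clusters that came mostly from 1 library, the log2 ratio of B2m in basal-like cells was -3.18, against -3.46 with them, and that of H2-K1 was -1.90, against -2.31. H2-Q7 there was at -5.90, against -6.95, H2-Q6 at -5.80, against -7.76, and H2-T22 at -0.98, against -1.48. In basal-like cells 6 members then reached the minimum, in place of 7, and all 6 were lower. The share over all genes was not computed for these cells, so this count has no comparison. In cycling-like cells, then only cluster 17 (50 cells at ZT12, 18 at ZT0), B2m was at -4.02 and H2-K1 at -3.31. This alternative was chosen after the data were seen. Each of these ratios kept its direction.

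Single cells showed how the level was spread. Each cell was thinned to the same number of UMIs, a depth that 2330 of 2541 ZT12 and 1417 of 1507 ZT0 keratinocytes reached, and the shallower cells were left out. A ZT12 keratinocyte had a median of 4 member UMIs (25th to 75th percentile 2 to 6) and a ZT0 keratinocyte 10 (5 to 27). The 95th percentile was 9.55 UMIs at ZT12 and 65 at ZT0. The ZT0 cells therefore had both a higher middle and a long upper tail, with 50.5% of them above the ZT12 95th percentile and 22.5% at or below the ZT12 median. The variance of the member UMIs over their mean was 2.48 at ZT12 and 23.6 at ZT0. Filiform-like cells had a median of 4 at ZT12 and 6 at ZT0, and 35.6% of the ZT0 cells were above the ZT12 95th percentile of that class.

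**Figure D4:**
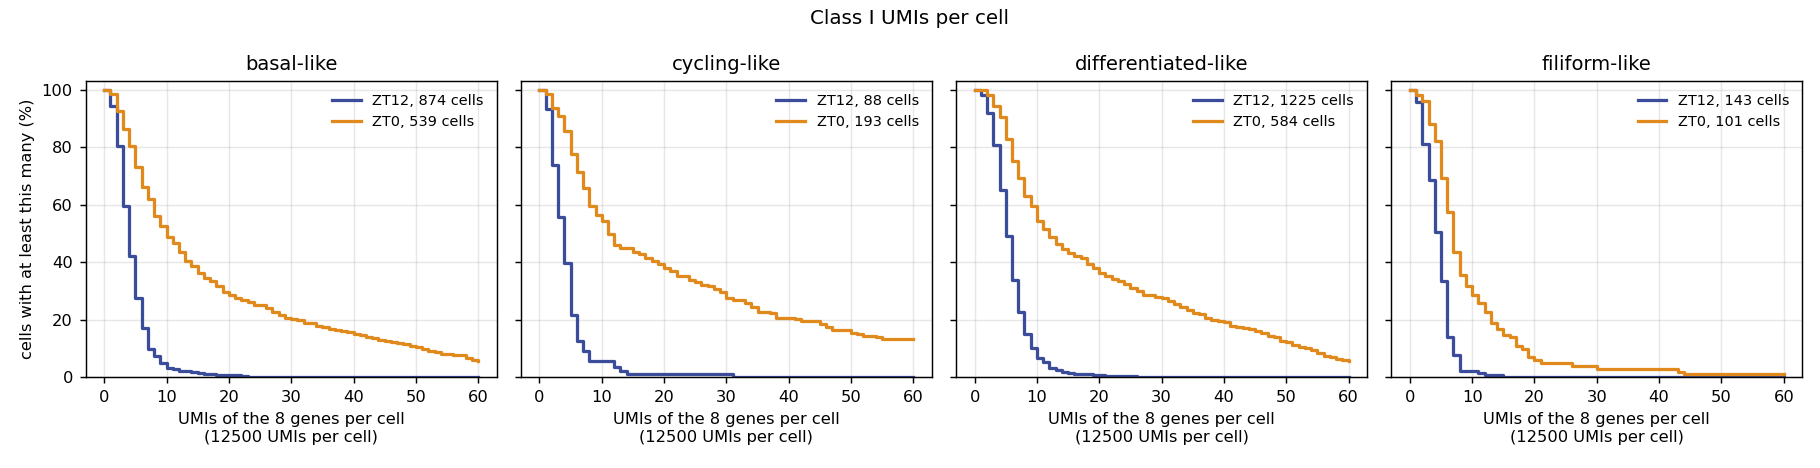
Share of cells with at least a given number of class I UMIs, in each keratinocyte class, with every cell thinned to the same depth and the number of cells in the legend. ZT12 curves (blue) fall to near 0 by about 20 UMIs. ZT0 curves (orange) start similarly but keep a long tail, shortest in filiform-like cells.

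With thinning, B2m had at least 1 UMI in 21.8% of ZT12 keratinocytes (20.2 to 23.6) and in 65.3% of ZT0 keratinocytes (62.8 to 67.8), or 34.5% at ZT12 and 78.8% at ZT0 without thinning. H2-K1 was found in 71.3% of ZT12 and 86.5% of ZT0 cells (81.9% at ZT12 and 93.03% at ZT0 without thinning). H2-Q7 was found in 0.300% of ZT12 cells (0.121 to 0.618) and 20.5% of ZT0 cells (18.4 to 22.7), or 0.472% at ZT12 and 26.7% at ZT0 without thinning. H2-Q6 was found in 0 of 2330 ZT12 cells (exact upper limit 0.158%) and in 7.41% of ZT0 cells. These shares limit cells with a UMI at this depth, not cells that express the gene. Any member was found in 96.4% of ZT12 and 98.9% of ZT0 cells. No cell class lacked class I, so the share that free RNA alone would give could not be read from another class.

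Within the ZT0 library the members varied together from cell to cell. Over 1417 thinned keratinocytes, which share 1 library and 1 depth, B2m and the summed heavy chains had a Pearson correlation of 0.85 (Spearman 0.78), and H2-K1 and H2-D1 had 0.81 (0.74). At ZT12, over 2330 cells with few member UMIs each, the first pair had 0.41 (0.15) and the second 0.28 (0.17). These are descriptions of cells in 1 library each.

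The members also moved with the interferon-stimulated genes, a list of 19 genes such as Isg15, a ubiquitin-like modifier, and Oasl2, an antiviral 2'-5' oligoadenylate synthetase-like protein, of which 18 were in the table. At ZT0 the summed member UMIs and the summed UMIs of this list had a Pearson correlation of 0.73 over cells (Spearman 0.74), and at ZT12 0.35 (0.14). Cells with 3 or more UMIs of the list were 4.72% of ZT12 and 55.6% of ZT0 keratinocytes. In filiform-like cells they were 1.40% of ZT12 and 20.8% of ZT0 cells. Such cells had a mean of 8.46 member UMIs at ZT12 (110 cells) and 29.4 at ZT0 (788 cells). Cells without a UMI of the list, 73.9% of ZT12 and 22.4% of ZT0 keratinocytes, had 3.96 member UMIs at ZT12 and 5.27 at ZT0. Cells with 1 to 2 UMIs of the list had 4.72 member UMIs at ZT12 and 7.61 at ZT0. The libraries were thus closer among cells without such UMIs than among those with 3 or more. The bin of 3 or more has no upper limit, and its UMIs of the list were not matched between the libraries.

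**Figure D5:**
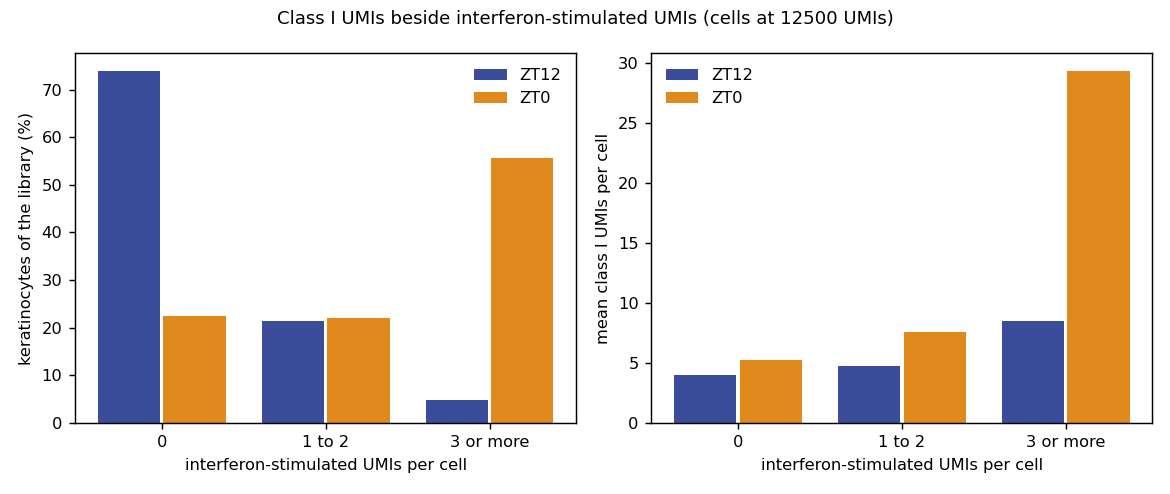
Left, the share of keratinocytes of each library by their UMIs of the interferon-stimulated list, and right, the mean class I UMIs per cell in the same bins (cells thinned to the same depth, ZT12 in blue, ZT0 in orange). Cells with 3 or more such UMIs are 4.72% of ZT12 and 55.6% of ZT0 cells and carry 8.46 class I UMIs at ZT12 and 29.4 at ZT0.

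Among the cells without an interferon-stimulated UMI, the members were still not equal. B2m had 0.230 UMIs per cell at ZT12 and 0.435 at ZT0, 1.89-fold lower at ZT12 (1.55 to 2.30). H2-K1 was 1.27-fold lower (1.16 to 1.39), H2-D1 1.24-fold (1.13 to 1.35), H2-T22 1.33-fold (1.04 to 1.67) and H2-T23 1.68-fold (1.42 to 1.99). H2-Q4, H2-Q6 and H2-Q7 had 10, 0 and 5 UMIs at ZT12 and 1 UMI each at ZT0. These 3 genes were then under the minimum, so 5 members could be counted, in place of 7 in all keratinocytes. Of the 5, 2 were lower in all keratinocytes, beside 5.56% of genes in the same cells. In basal-like cells 1 of 5 was lower, beside 4.75%, in cycling-like cells 2 of 5, beside 6.57%, in differentiated-like cells 2 of 5, beside 4.08%, and in filiform-like cells 3 of 5, beside 3.48%. In cells with 3 or more such UMIs, B2m was 5.28-fold lower at ZT12 (4.50 to 6.24) and H2-K1 3.30-fold (2.97 to 3.68). These cells were chosen after the data were seen, on a measure that varies with class I from cell to cell.

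Immune cells were described apart. The 16 cells rich in Cd74, the class II invariant chain (3 at ZT12, 13 at ZT0), all fell in the immune-like cluster. Cd74 was open to use in clustering and is a marker that named this cluster, so that was largely set in advance. The summed class I level of the cluster follows. It was 5926 CPM at ZT12 and 6109 CPM at ZT0, 1.03-fold lower at ZT12 (0.938 to 1.13), and none of the 8 members passed the rule there, beside 2.94% of genes. B2m was at 1103 CPM at ZT12 (902 to 1335) and 1489 CPM at ZT0 (1356 to 1632), 1.35-fold lower at ZT12 (1.09 to 1.69), an interval that leaves out 1 with a fold under the 1.5 of the rule, and H2-Q7 at 420 CPM at ZT12 (300.2 to 572) and 466 CPM at ZT0 (393 to 549). Class I RNA was thus higher in immune-like cells than in keratinocytes of either library. With 10 cells at ZT12, 22 at ZT0 and shallow barcodes (median 9374 UMIs at ZT12 and 14248 at ZT0), this comparison is coarse. In the simple epithelium-like cluster the sum was 1145 CPM at ZT12 and 2124 CPM at ZT0, 1.86-fold lower at ZT12 (1.70 to 2.02).

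Markers of immune cells were also read in the keratinocytes. The 13 immune markers summed to 2.90 CPM at ZT12 and 4.35 CPM at ZT0 in all keratinocytes, and to between 1.81 and 6.64 CPM at ZT12 and 2.96 and 8.57 CPM at ZT0 over the classes, against 28850 CPM at ZT12 and 28087 CPM at ZT0 in immune-like cells. Ptprc, which encodes the pan-leukocyte antigen CD45, had 1 UMI at ZT12 and 2 UMIs at ZT0 in all keratinocytes, and Cd74 was at 0.393 CPM at ZT12 and 1.08 CPM at ZT0. Of the 13 markers, 12 at ZT12 and 11 at ZT0 were below 1 CPM. The part of such RNA in the class I levels was not tested.

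The genes that serve class I were lower at ZT12 in part. Of 12 measured genes of peptide loading and the immunoproteasome, 5 were lower in all keratinocytes, beside 5.17% of all genes, with a median log2 ratio of -0.51. None was higher, beside 1.25%. Psmb8, an interferon-induced proteasome subunit, was at 0.921 CPM at ZT12 and 42.3 CPM at ZT0, 46.0-fold lower (35.6 to 60.3), and Psmb9, its partner, at 3.73 CPM at ZT12 and 43.5 CPM at ZT0, 11.7-fold lower (10.2 to 13.4). Tap1, a chain of the peptide transporter, was 3.08-fold lower (2.86 to 3.31), and Tapbp, the bridge between transporter and heavy chain, 1.53-fold lower (1.46 to 1.60). Psmb8 and Psmb9 reached the minimum through ZT0 alone and could only be counted as lower. Their folds are therefore not ranked against those of Tap1 and Tapbp. In basal-like cells 8 of 12 were lower, beside 3.81% of genes, and in cycling-like cells 7 of 13, beside 9.26%. In differentiated-like cells 5 of 12 were lower, beside 2.47%, and in filiform-like cells 2 of 10, beside 3.53%.

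Of 19 measured class I transcription regulators, 5 were lower in all keratinocytes, beside 5.17% of genes, and none was higher, beside 1.25%. Irf9, the DNA-binding part of the complex that acts on interferon response elements, was 3.76-fold lower at ZT12 (3.46 to 4.09). Irf1, an interferon-induced factor, was 2.77-fold lower (2.41 to 3.20). Nlrc5, the class I coactivator, had 13 UMIs at ZT12 and 284 at ZT0, 0.196 CPM at ZT12 and 5.91 CPM at ZT0, a ratio of 30.1 (17.3 to 57.3), and was under the minimum. It had 12 UMIs at ZT12 and 71 at ZT0 in basal-like cells and 1 UMI at ZT12 and 169 at ZT0 in differentiated-like cells. In filiform-like cells it had 0 UMIs at ZT12 and 4 at ZT0.

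All 13 measured interferon-stimulated genes were lower in all keratinocytes, beside 5.17% of genes, with a median log2 ratio of -4.51. Ifi27l2a, an interferon-induced mitochondrial protein, was 24.8-fold lower at ZT12 (23.5 to 26.1). Isg15 was 21.3-fold lower (18.8 to 24.2), Oasl2 23.6-fold lower (19.6 to 28.6) and Bst2, which tethers viral particles, 9.25-fold lower (8.18 to 10.5). Isg15, Oasl2, Bst2, Irf1, Psmb8 and Psmb9 reached the minimum through the ZT0 library alone, so each could only be counted as lower. With Isg15, Oasl2 and Bst2 among the 13, that count and its median rest at least in part on such genes. How many others of the 13 did so is not given here. In filiform-like cells 4 of 4 measured genes of the list were lower, beside 3.53% of genes, with a median of -2.66. The same limit can apply to this count. Of 10 measured receptor and kinase genes of the interferon pathway, 2 were lower in all keratinocytes, beside 5.17% of genes. None was higher, beside 1.25%. Jak1, a kinase of all interferon receptors, was at 98.8 CPM at ZT12 and 90.8 CPM at ZT0. None of the 9 interferon and related cytokine genes listed reached the minimum in keratinocytes. Of the other class I and class I-like rows, 2 were measured and both were lower at ZT12, beside 5.17% of genes. Procr, the protein C receptor, was 2.39-fold lower (2.22 to 2.57) and H60c, a ligand of NKG2D, 1.56-fold lower (1.47 to 1.66). By class, 2 of 4 measured genes of that list were lower in basal-like cells, beside 3.81% of genes. In cycling-like cells 1 of 5 was lower, beside 9.26%, and the list's median was 0.47 on the log2 scale. In filiform-like cells 1 of 2 was lower, beside 3.53%, and in differentiated-like cells 1 of 3, beside 2.47%. None was higher by the rule, beside 2.93% of genes in basal-like and 6.87% in cycling-like cells. In filiform-like cells that share was 2.32% and in differentiated-like cells 1.32%.

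Likeness was measured as the Pearson correlation of log2(CPM + 1) with the summed members over the 8 class and library sums, among 5986 genes of mean CPM 20 or more. Among the non-member genes most alike were Tap1 (0.98), Ddx24 (0.98), Ndufa1 (0.97), Isg15 (0.96), Atp5e (0.96), Cox6c (0.96) and Irf9 (0.95). Of these, Ddx24, Ndufa1, Atp5e and Cox6c differed by only 1.26-fold to 1.37-fold between the libraries in all keratinocytes. The 8 sums come from 2 libraries, so the points share libraries and classes, and no p is given.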

How the data were processed

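The deposited values were raw UMI counts per gene and cell barcode for 32285 genes in 1 matrix per library. The submitters' processing notes name mm10 and Cell Ranger 2.1.1, but the matrices carry Cell Ranger 4.0.0 per the file headers, a difference that was not settled. The matrices held 2819 barcodes with 67901140 UMIs at ZT12 and 1726 barcodes with 49826740 UMIs at ZT0. From these counts, barcodes with fewer than 500 genes or 10% or more mitochondrial UMIs were removed (191 at ZT12, 129 at ZT0), as were called doublets (6 or 0.23% at ZT12, 4 or 0.25% at ZT0, so few that doublets were in effect not removed). Counts were not corrected for free RNA.

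MHC, antigen presentation and interferon genes, except Cd74, were left out before clustering. Clock, immediate early, sex-linked, mitochondrial, ribosomal protein and heat-shock genes were left out too. Of the rest, the 2000 most variable genes were clustered in scanpy 1.11.5 (30 components, 15 neighbours, Leiden resolution 1, leidenalg 0.10.2) into 20 clusters. These were named from marker lists; the rule for naming, including the need for Krt36 or Krt84 among the 10 leading genes of a filiform-like cluster, was set after the clusters were seen, and clusters 5 and 13 were named on small margins. UMIs were summed per class and library and scaled to CPM. Ratios carry exact conditional binomial intervals, levels exact Poisson intervals and shares exact Clopper-Pearson intervals, all at 95% and for counting error only, and no p-value could be computed from a single library at each time. Cd74-high cells had at least 5 Cd74 UMIs and 200 CPM. All 8 members are named; of other lists, up to 4 genes of mean CPM 20 or more with the largest ratios, plus Nlrc5, Irf1, Tap1 and Cd74, except Jak1, Ptprc and the genes in likeness or marker checks. A further gene under this rule is not reported here. The members and lists were chosen with earlier results of these data known. The rule for lower genes was run on simulated counts that held counting error only, as its interval assumes. That checks the computation and not the spread between cells or libraries. Alternatives covered cell filters, doublets, resolution, clustering genes, scaling (edgeR 4.0.16 TMM), averaging over cells, thinning, minimum CPM, pseudocount, fold and class makeup. Sequences came from the RefSeq promoter table and were searched in the 250 bases before each start; H2-K1 had more than 1 entry and the one at the GENCODE M21 start was used.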

Additional observations from a re-analysis of the deposited data

Results flagged for a closer look

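In immune-like cells 3 members had a ratio on the other side of 0 from that in all keratinocytes, where each was lower at ZT12. The log2 ratio, ZT12 over ZT0, was 0.201 for H2-K1, 0.174 for H2-T22 and 0.017 for H2-D1 in immune-like cells. The intervals of all 3 in these cells include no difference, with 10 cells at ZT12 and 22 at ZT0, and the difference between immune-like cells and keratinocytes was not tested.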

How the results depend on the processing

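No paired analysis was possible because each time had 1 library, and no replicate could be left out. Under every alternative but the one named next that gave a value, each member's ratio kept its direction in every class. Under these alternatives the number of lower members stayed within 1.5 times of the value in the report. It was 6 to 8 in all keratinocytes and 3 to 6 in filiform-like cells. The share over all genes was not computed anew under them. Chosen after the data were seen, the use of only thinned cells without an interferon-stimulated UMI left 5 members above the minimum and gave 2 lower members in all keratinocytes, 1 in basal-like, 2 in cycling-like and 2 in differentiated-like cells. Under it the log2 ratio of H2-Q4 in all keratinocytes was 0.88, from 11 UMIs in all, and that of H2-T23 in cycling-like cells was 0.63, from 14 UMIs at ZT12 and 5 at ZT0. The cause was not tested. With MHC and interferon genes allowed in clustering, B2m in differentiated-like cells was at -4.66, against -4.05. A pseudocount of 1 CPM, which by construction shrinks ratios of low genes, gave -3.54 for H2-Q6 and -5.27 for H2-Q7 in all keratinocytes. No cluster reached 90% of cells from 1 library, so that alternative equals the value in the report, and a limit of 75% was added after the data were seen. Keeping immune-like cells in, and weighting classes alike, apply to all keratinocytes only. Depth limits H2-Q4, H2-Q6 and H2-Q7 at ZT12, most of all in cycling-like cells, where 3 counts are 1.38 CPM (0.797 CPM in filiform-like cells).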
